A study of Mus musculus with 35 samples.

Results

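RNA carrying N6-methyladenosine (m6A) was immunoprecipitated from the hippocampus of mice 2 weeks after intra-amygdala kainic acid (IAKA) or PBS and sequenced, and the 11 libraries of this kind, among 35 labelled libraries in the series, are described here across genes and pathways. They were chosen by their labels alone, as the m6A libraries at 2 weeks, and comprise 6 IAKA mice (numbered 5, 6, 7, 9, 21 and 42, called KA mice below) and 5 PBS mice (2, 3, 4, 50 and 78), with 1 library per mouse. All were adult male C57BL/6JOlaHsd mice aged 7 to 9 weeks with a cannula placed over the amygdala. KA mice received kainic acid in PBS, which triggers status epilepticus, and lorazepam thereafter to limit the seizures. PBS mice received the vehicle in the amygdala, and whether they were also given lorazepam is not given in the sources used here. At 2 weeks the model is in its chronic phase, when spontaneous seizures recur. By the submitters' protocol, the antibody pulldown started from extracted total RNA and was followed by a stranded total RNA library kit. The molecule field of the sample records names polyA RNA instead, and this conflict is not resolved in the sources used here. Reads were counted per gene symbol, so a value is the amount of a gene's RNA in the pulldown and does not resolve where in the transcript the m6A lies or what share of its copies carry it.

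m6A is a common internal modification of mRNA. It is placed by a writer complex built around METTL3 and METTL14, can be removed by the erasers FTO and ALKBH5, and is bound by readers such as the YTHDF proteins, which affect translation and decay of the transcript. In the hippocampus, status epilepticus is followed by gliosis, in which microglia and astrocytes take up an activated state, by loss and rewiring of neurons, and by altered expression of neuropeptides, growth factors and ion channels.

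Only the columns of some libraries name the assay. For the remaining ones, column names with a numeric prefix (3, 4 or 5) were read as m6A and those without as input, that is total RNA before the pulldown. The prefix is called the library set here. KA mice 5, 6 and 42 were in set 3, PBS mice 50 and 78 in set 4, and KA mice 7, 9 and 21 with PBS mice 2, 3 and 4 in set 5, so treatment and library set cannot be told apart in sets 3 and 4 and medians of lists within set 5 are given beside those over all libraries.

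Total counts ran from 15291875 to 34564536 in KA libraries and from 6579414 to 26622615 in PBS libraries, so that 3 counts, the limit that a count of 0 allows, correspond to 0.0868 to 0.456 CPM, the counts of a gene scaled to a common library total. Mitochondrially encoded genes took 2.70% to 17.5% of the counts in KA and 3.06% to 10.1% in PBS libraries. The single gene Lars2 took 0.631% to 17.4% in KA and 0.713% to 13.8% in PBS libraries. Libraries of PBS mouse 4 and KA mouse 6 stood apart. That of PBS mouse 4 was the shallowest, held the fewest genes with a count (17405) and had a median Spearman correlation with the others of 0.923, against 0.935 to 0.966 for the other libraries. The library of KA mouse 6 had the highest mitochondrial share and the most genes with a count (27003). Markers of hippocampal neurons were detected throughout, with summed levels of dentate granule cell markers of 309 to 564 CPM in KA and 341 to 774 CPM in PBS libraries.

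On the first principal component of the 500 most variable genes, which held 42.6% of the variance, PBS mouse 4 lay at -76.6 and the other 10 libraries between 2.54 and 13.1. The second component held 22.1%, with KA mouse 6 at -37.9 and the highest scores in KA mouse 42 (24.1) and in PBS mice 50 (19.8) and 78 (18.8). The groups were not separated on either component (exact two-sided permutation test over all groupings of the libraries, P = 0.247 and P = 0.342, both 0.342 after Benjamini-Hochberg adjustment). Without PBS mouse 50 the exact permutation P of the first component was 0.0143.

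**Figure D1:**
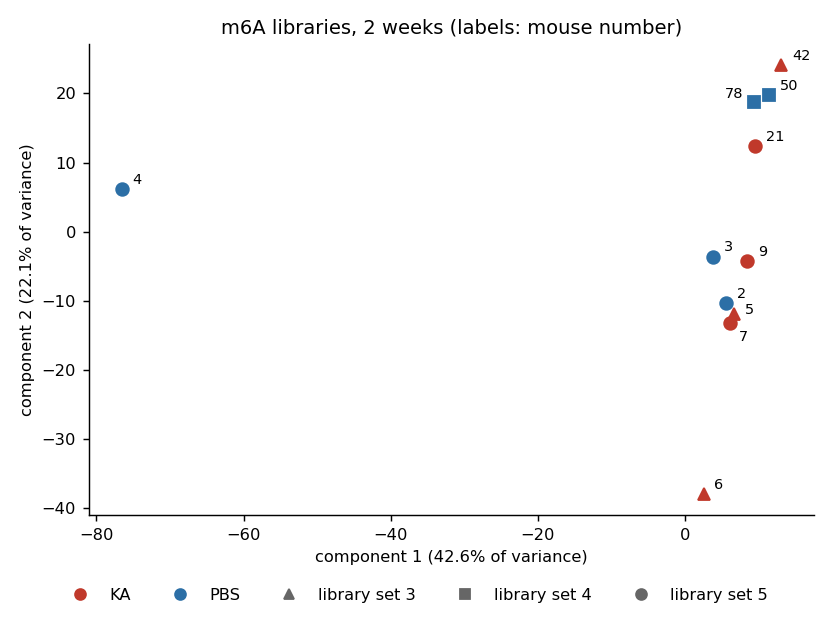
Scores of the 11 m6A libraries on the first (x axis) and second (y axis) principal component of log2 CPM, with mouse numbers beside the points, colors for KA and PBS and symbols for the library set. PBS mouse 4 lies alone at -76.6 on the first component and KA mouse 6 at -37.9 on the second.

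Genes of microglia, the phagocytes of the brain, stood at the head of the comparison of KA with PBS mice, together with Acvr1c and Nptx2, and none of these differences passed the test. The log2 difference was 3.2 ± 0.462 for Clec7a, 1.48 ± 0.22 for Acvr1c, 1.99 ± 0.378 for Nptx2 and 1.45 ± 0.285 for Ctss (6 KA and 5 PBS mice), with all KA mice above all PBS mice. edgeR's quasi-likelihood test with Benjamini-Hochberg adjustment over all 16157 genes tested called 0 of them (0%) at an adjusted P below 0.05, with a smallest adjusted P of 0.0784 for Clec7a and Acvr1c. At an unadjusted P below 0.05, 460 genes (2.85%) were higher and 349 (2.16%) lower in KA mice, and with scaling by library size alone these were 289 and 549, and with library set as a block 226 and 281. The 349 lower genes became 178 and 222 without KA mouse 7 and PBS mouse 50, and 544 and 566 without KA mouse 42 and PBS mouse 2. DESeq2 on the same counts called 15 genes, all higher in KA mice (adjusted P from 8.73e-09 to 0.0408): Clec7a, Acvr1c, Nptx2, Fcgr3, Ctss, Dpy19l3, Wisp1, Bcl2a1b, Plek, Cst7, Ptprc, Ccl6, Cd52, Lilrb4a and Samsn1. In edgeR, Lilrb4a, an inhibitory receptor of myeloid cells, had a log2 difference of 3.01, Samsn1, an adaptor of immune cells, one of 1.33 and Dpy19l3, a glycosyltransferase, one of 0.73. The voom fit with sample quality weights called 2, Acvr1c (adjusted P = 0.00517) and the predicted gene Gm5940. With library set as a block, 0 were called and 507 genes had an unadjusted P below 0.05 in edgeR. The KA and PBS libraries did not overlap for 73 genes that were higher (0.452% of those tested) and 24 that were lower (0.149%) in KA mice. The median log2 difference over all genes tested was -0.0013, and 8052 of them (49.8%) were above 0. In hippocampal tissue, more or fewer cells of a type and more or less RNA per cell cannot be told apart. Adjusted P values below are those of edgeR over all genes tested, log2 differences are KA over PBS with the standard error (SE), and PBS values follow the order of mice 2, 3, 4, 50 and 78.

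Clec7a, which encodes the pattern recognition receptor dectin-1 on microglia and other myeloid cells (mm10, chr6:129461591-129472785), ran from 2.98 to 12.6 CPM in KA mice with a median of 9.59. PBS values were 1.67, 0.882, 0.306, 0.84 and 0.685 CPM, of which that of PBS mouse 4 lay below its 3-count limit. All 6 KA mice lay above all PBS mice, and the log2 difference was 3.2 ± 0.462 (adjusted P = 0.0784) over all libraries and 2.87 within set 5. Ctss, a lysosomal protease that microglia use to process antigens (chr3:95526786-95556405), ran from 89.7 to 236 CPM with a median of 135 in KA mice, and its PBS values were 77.7, 45.5, 57.6, 44.2 and 49.4 CPM. Its groups did not overlap either, with KA mice 42 and 21 highest and KA mice 5 and 7 close to PBS mouse 2, and the log2 difference was 1.45 ± 0.285 (adjusted P = 0.43), or 1.33 within set 5.

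Fcgr3, a low-affinity receptor for immunoglobulin G, was at 7.91 to 17.3 CPM (median 11.2) in KA mice and at 4.66, 6.0, 5.96, 3.78 and 3.13 CPM in PBS mice, a log2 difference of 1.33 ± 0.26. The lowest KA mouse, number 6, was still above the highest PBS mouse. For Plek, a substrate of protein kinase C in blood-derived and microglial cells, KA values ran from 14.9 to 24.8 CPM (median 21.2) against 13.1, 10.2, 9.32, 5.64 and 5.48 CPM in PBS mice. For Ptprc, the leukocyte antigen CD45, they ran from 14.4 to 23.7 CPM (median 16.8) against 11.1, 7.58, 11.8, 6.76 and 7.15 CPM. The differences of both genes were smaller within set 5 (0.90 and 0.64) than over all libraries (1.22 ± 0.259 and 1.05 ± 0.226), and PBS mice 50 and 78 had the lowest levels of both. Cd52, a small surface glycoprotein of leukocytes, and Bcl2a1b, a member of the BCL-2 family that restrains apoptosis, had KA ranges of 1.33 to 2.92 and 0.636 to 3.76 CPM. Their PBS ranges were 0.49 to 0.764 and 0.209 to 0.588 CPM, which for Bcl2a1b is below the 3-count limit in PBS mouse 2, and reads of Bcl2a1b may be shared with its near-identical copies Bcl2a1a and Bcl2a1d.

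Cst7, an inhibitor of lysosomal cysteine proteases, had the largest log2 difference of the microglial genes named here (3.58 ± 0.905, adjusted P = 0.875) and was chosen after its values were seen. KA values ran from 0.443 to 15 CPM with a median of 4.1, and PBS values were 0.209, 0.118, 1.53, 0.245 and 0.685 CPM. The groups overlapped, as KA mice 7 and 5 lay below PBS mouse 4, and PBS mice 2 and 3 were below their 3-count limits. Ccl6, a chemokine of myeloid cells, was at 3.29 to 9.7 CPM (median 7.14) in KA mice and at 1.95, 3.06, 1.99, 0.735 and 1.66 CPM in PBS mice without overlap. Tyrobp, the signaling adaptor of TREM2, was at 3.99 to 12.4 CPM (median 6.91) in KA mice and at 2.85, 3.12, 6.57, 1.61 and 1.18 CPM in PBS mice. The highest PBS value of Tyrobp was that of mouse 4, and the log2 difference was 1.34 ± 0.439 with and 1.74 without PBS mouse 4 and KA mouse 6.

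Of 20 tested members of a list of phagocytic, disease-associated microglial genes, 19 were above 0, 11 had an unadjusted P below 0.05 with higher levels in KA mice and none with lower levels, and 3 did not overlap between groups. Over all genes tested in edgeR, 2.85% were higher and 2.16% lower at that unadjusted P. The groups did not overlap for 0.452% with higher and 0.149% with lower levels. Counts of the lists below stand beside these same shares. The median log2 difference of the list was 1.01, against -0.0013 over all genes, and was 0.82 within set 5 and 1.16 without PBS mouse 4 and KA mouse 6. The 11 were Clec7a, Ctss, Cst7, Ccl6, Tyrobp, Trem2, Spp1, Gpnmb, Cd9, Ctsd and Cd63. Spp1, the secreted phosphoprotein osteopontin, stood at 12 to 34.8 CPM in KA mice and 5.08 to 12 CPM in PBS mice (log2 difference 1.01 ± 0.32). Apoe, the lipid carrier of glia, had a log2 difference of 0.33 (adjusted P = 0.905). Itgax and Lgals3 did not pass the filter on low counts and were not tested.

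Homeostatic microglia markers, which resting cells express, were described by the same measures: 13 of 15 were above 0, 5 had an unadjusted P below 0.05 with higher levels, and the median was 0.49 (0.76 within set 5). Their summed level was 302 to 703 CPM in KA and 233 to 347 CPM in PBS mice, with overlap. The part of this summed level in the microglial results was not tested. Fcrls, an Fc receptor-like scavenger receptor of microglia, had KA values of 9.13 to 32.6 CPM (median 14.2) and PBS values of 8.7, 6.05, 7.64, 6.62 and 7.64 CPM. Its groups did not overlap, with KA mouse 42 highest and KA mice 5 and 6 just above PBS mouse 2, and its log2 difference was 1.2 ± 0.329 (adjusted P = 0.875). P2ry12, Tmem119 and Cx3cr1, the surface receptors by which resting microglia are usually recognized, had log2 differences of 0.06 (adjusted P = 0.976), -0.32 (adjusted P = 0.927) and 0.69 (adjusted P = 0.875).

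**Figure D2:**
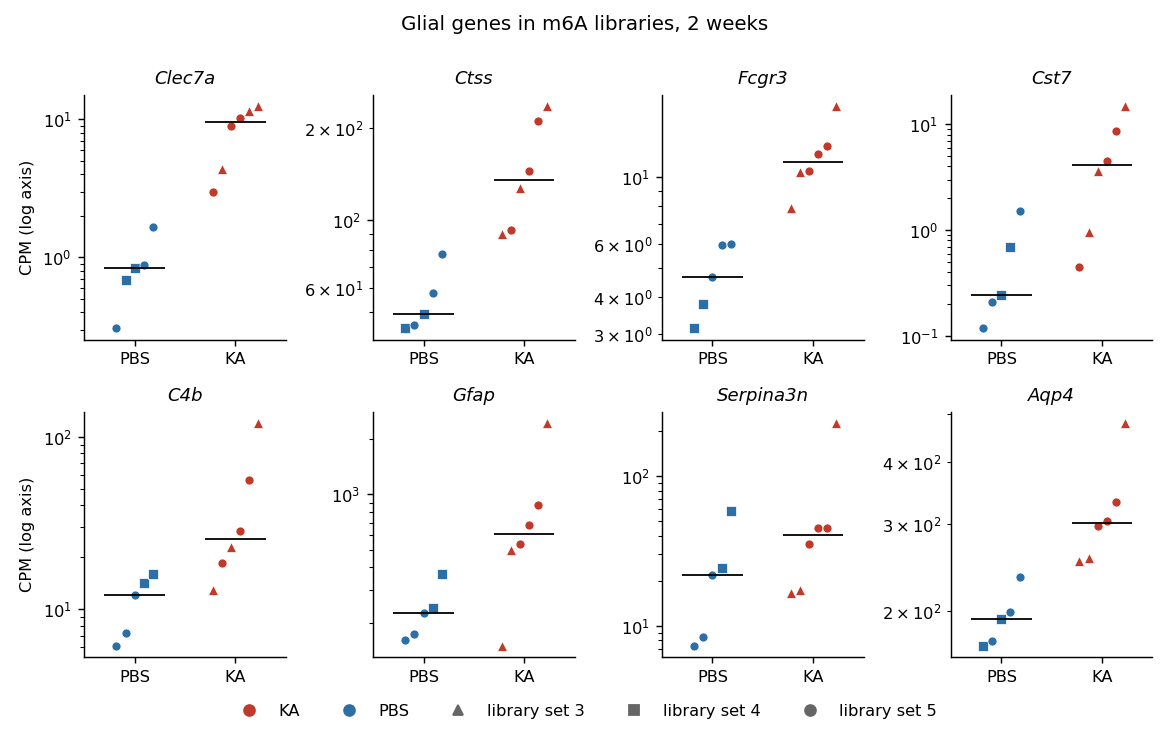
Levels of 8 glial genes (y axes, CPM on a log scale) in PBS and KA m6A libraries at 2 weeks, with 1 point per mouse, symbols for the library set and a line at the group median. Clec7a lies at 2.98 to 12.6 CPM in the 6 KA mice and at 0.306 to 1.67 CPM in the 5 PBS mice, whereas Gfap spans 149.7 to 2451 CPM in KA mice and overlaps with PBS mice.

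Levels of astrocyte genes spread widely among KA mice. Gfap, the intermediate filament protein of astrocytes, ran from 149.7 to 2451 CPM in KA mice with a median of 609, and PBS values were 160.4, 172, 226, 241 and 367 CPM. KA mouse 42 was highest and KA mouse 6 was below every PBS mouse. The log2 difference was 1.89 ± 0.534 (adjusted P = 0.875) and 1.23 without KA mouse 42. Vim, another intermediate filament gene, showed the same mouse at the top (36.9 to 309 CPM in KA and 25 to 59.7 CPM in PBS mice) and a log2 difference of 1.37 ± 0.526, or 0.58 without it. Cd44, the hyaluronan receptor, was at 12.3 to 62.8 CPM (median 20.2) in KA mice and at 10.6, 10.8, 5.5, 7.7 and 15 CPM in PBS mice, with KA mouse 21 below PBS mouse 78, and its log2 difference was 1.39 ± 0.40 (adjusted P = 0.875). S100a10, a subunit of the annexin A2 complex, had KA values of 18 to 37.4 CPM and PBS values of 14.5, 21, 6.42, 6.34 and 11.3 CPM, of which only that of PBS mouse 3 lay above the lowest KA value (log2 difference 1.14 ± 0.32, adjusted P = 0.875).

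Of 20 tested genes of reactive astrocytes, 19 were above 0, 7 had an unadjusted P below 0.05 with higher levels in KA mice (Gfap, Vim, Cd44, Aspg, Osmr, Emp1 and S100a10), and every tested member overlapped between groups. The median of the list was 0.90, or 0.97 within set 5, and its summed level was 310.2 to 3285 CPM in KA and 291 to 621 CPM in PBS mice. Genes of homeostatic astrocytes had a median of 0.10 (0.40 within set 5), and 10 of 16 were above 0. Among them Aqp4, the water channel of astrocyte endfeet, was at 252 to 479 CPM (median 300.4) in KA mice and at 234, 174, 199, 193 and 170.1 CPM in PBS mice without overlap, a log2 difference of 0.72 ± 0.198 (adjusted P = 0.875).

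Complement genes, which tag cells and synapses for removal, had a median of 0.70 (0.79 within set 5) with 16 of 18 above 0 and 6 at an unadjusted P below 0.05 with higher levels (among them C4b, C1qb, C3, C3ar1 and C5ar1). C4b, a component of the classical pathway whose reads may be shared with C4a, ran from 12.9 to 120.2 CPM (median 25.6) in KA mice and was 12, 7.23, 6.11, 14.1 and 15.9 CPM in PBS mice. KA mouse 6 lay below PBS mice 50 and 78, KA mouse 42 was far above the rest, and the log2 difference was 1.96 ± 0.534 (adjusted P = 0.875), or 1.32 without that mouse. C1qb, a chain of the initiating component C1q, was at 13.2 to 82.1 CPM (median 24.2) in KA mice and at 14.1, 11.8, 15.4, 14.8 and 16.7 CPM in PBS mice, with the lowest KA mouse inside the PBS range and a log2 difference of 1.21 ± 0.393. C3, the central component, was at 1.12 to 12.4 CPM in KA mice and 0.611 to 2.64 CPM in PBS mice, with KA mice 6 and 9 below 4 of 5 PBS mice.

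Other immune lists had smaller shifts. Interferon-stimulated genes had a median of 0.52 (0.55 within set 5) with 22 of 25 above 0 and 4 at an unadjusted P below 0.05, namely Ifitm3, Gbp3, Ddx58 and Ifih1, of which the last pair encode cytosolic sensors of RNA. Ddx58 was at 7.43 to 12.1 CPM in KA and 3.82 to 7.45 CPM in PBS mice (log2 difference 0.67 ± 0.239). Antigen presentation genes had a median of 0.35 over all libraries, with 12 of 16 above 0, and of 0.14 within set 5. PBS mouse 4 had the highest summed level of this list among PBS mice (223 CPM). Without that mouse the medians were 0.46 over all libraries and 0.42 within set 5. Psmb8, a catalytic subunit of the immunoproteasome, was at 1.5 to 7.21 CPM in KA mice and at 1.74, 1.94, 0.306, 2.0 and 1.66 CPM in PBS mice, the lowest value being that of PBS mouse 4. Genes of TNF and NF-kB signaling had a median of 0.31 (0.47 within set 5) with 15 of 18 above 0, and Rel, an NF-kB subunit, had a log2 difference of 0.58 ± 0.225. Genes of IL-6 and STAT3 signaling had a median of 0.06 (0.26 within set 5) with 12 of 20 above 0. Osmr, the receptor of oncostatin M in that family, was at 10.9 to 27.1 CPM in KA and 5.41 to 11 CPM in PBS mice, with KA mouse 6 inside the PBS range (log2 difference 0.90 ± 0.299, adjusted P = 0.875).

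Cytokines and chemokines were in part too low to test. Of 20 genes 10 passed the filter, and Ccl2, Ccl3, Ccl4, Ccl5, Ccl7, Cxcl1, Cxcl10, Il1b, Il6 and Tnf did not. Of the tested ones 5 were above 0 and Cxcl16, a membrane-bound chemokine, did not overlap between groups (2.2 to 4.57 CPM in KA and 0.917 to 2.06 CPM in PBS mice, log2 difference 0.89 ± 0.322). Markers of leukocytes, of which Ptprc is also expressed by microglia, passed the filter in 9 of 15 cases, with 8 above 0, a median of 0.47 (0.26 within set 5) and summed levels of 44.9 to 72.2 CPM in KA and 33.3 to 46.6 CPM in PBS mice. Cd3e, Cd3g, Cd79a, S100a8 and Nkg7, which mark T cells, B cells, neutrophils and cytotoxic lymphocytes, were below the filter.

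Extracellular matrix genes (collagens, laminins and their partners) had 20 of 31 tested members above 0 and a median of 0.21, or 0.50 within set 5. Col3a1, a fibrillar collagen, ran from 5.02 to 21.9 CPM (median 7.31) in KA mice and was 3.97, 3.29, 1.53, 6.65 and 2.84 CPM in PBS mice. KA mouse 42 was again highest, 3 KA mice lay below PBS mouse 50, and the log2 difference was 1.32 ± 0.435 (adjusted P = 0.875). Col1a1, Col1a2 and Thbs2 were the other 3 members with an unadjusted P below 0.05. Genes of the NRF2 antioxidant response and metallothioneins had a median of 0.22 (0.30 within set 5) with 14 of 16 above 0. Mt1, a zinc-binding metallothionein, was at 115 to 316 CPM (median 185) in KA mice and at 129.7, 71, 55.4, 104 and 120.0 CPM in PBS mice, with only KA mouse 5 inside the PBS range (log2 difference 1.0 ± 0.283, adjusted P = 0.875).

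Among neuronal genes with higher levels in KA mice, Acvr1c and Nptx2 led. Acvr1c, which encodes the activin and nodal receptor ALK7 (chr2:58267453-58357896), ran from 59.2 to 114 CPM in KA mice with a median of 82.5, and PBS values were 34.6, 30.3, 35.1, 21.7 and 25.2 CPM. The groups did not overlap, KA mice 7 and 9 were highest, and the log2 difference was 1.48 ± 0.22 (adjusted P = 0.0784) over all libraries and 1.42 within set 5. Nptx2, a secreted pentraxin that gathers AMPA receptors at excitatory synapses on interneurons (chr5:144545887-144557478), ran from 16.4 to 71.1 CPM with a median of 37.4 in KA mice, and its PBS values were 7.03, 8.82, 9.17, 9.8 and 13.8 CPM. Its groups did not overlap either, KA mice 6 and 5 lay closest to PBS mouse 78, and the log2 difference was 1.99 ± 0.378 (adjusted P = 0.43), or 2.57 within set 5.

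Bdnf, a neurotrophin, Npy, an inhibitory neuropeptide, Penk, the precursor of enkephalins, and Inhba, a subunit of activin, were chosen after their values were seen. Bdnf ran from 44.7 to 161 CPM (median 71.1) in KA mice and was 29.7, 25.9, 29.8, 55.5 and 49 CPM in PBS mice. PBS mice 50 and 78 overlapped with KA mice 21 and 5, and the log2 difference was 1.16 ± 0.348 over all libraries and 1.91 within set 5, where the groups did not overlap. Npy was at 15.5 to 77.8 CPM (median 32) in KA mice and at 13.3, 13.4, 18, 18.3 and 21 CPM in PBS mice, with KA mice 5 and 21 inside the PBS range (log2 difference 1.3 ± 0.387, adjusted P = 0.875). Penk was at 15.5 to 169.9 CPM in KA and 24.3 to 36 CPM in PBS mice, with KA mouse 6 below every PBS mouse and a log2 difference of 1.17 ± 0.479. Inhba was at 5.3 to 91.1 CPM in KA mice and at 8.35, 6.17, 1.99, 23.6 and 20.7 CPM in PBS mice, and its log2 difference of 1.74 ± 0.713 over all libraries was 3.19 within set 5. KA mouse 7 had the highest level of Npy, Bdnf and Inhba. Over the whole list of neuropeptides, granins and secreted neuronal factors, 14 of 23 were above 0 and the median was 0.12, or 0.46 within set 5.

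Wisp1, a matricellular protein of the CCN family, was the remaining gene with non-overlapping groups among the leading ones (0.921 to 4.94 CPM in KA and 0.306 to 0.49 CPM in PBS mice, log2 difference 2.54 ± 0.506, adjusted P = 0.43). Its PBS levels were near the 3-count limits of the PBS libraries, which ran from 0.113 to 0.456 CPM. Igfbpl1, a marker of newborn granule neurons, was at 0.533 to 3.21 CPM in KA mice and 0 to 0.881 CPM in PBS mice, with no count in PBS mouse 4 (log2 difference 1.75 ± 0.62, adjusted P = 0.875). The list of dentate neurogenesis genes it belongs to had a median of -0.07 and 7 of 14 above 0, but a median of 0.33 with 9 of 13 above 0 within set 5.

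Among genes lower in KA mice, the adjusted P was 0.875 in edgeR for each of the 10 leading named ones. Tox3, a nuclear high-mobility-group protein (chr8:90247110-90349029), had KA values of 3.36 to 7.8 CPM (median 6.95) and PBS values of 10.2, 13.6, 13, 13.1 and 12.3 CPM. All KA mice lay below all PBS mice, KA mouse 7 stood apart at the bottom, and the log2 difference was -0.94 ± 0.232 (adjusted P = 0.875), or -0.94 within set 5. Robo1, an axon guidance receptor for SLIT proteins, was at 59.3 to 85.1 CPM (median 69.9) in KA mice and at 87.6, 123, 152, 101 and 107 CPM in PBS mice. The gap between KA mouse 21 and PBS mouse 2 was small, and the log2 difference was -0.67 ± 0.182 (-0.70 within set 5). Asic4, a member of the acid-sensing channel family, was at 0.267 to 1.9 CPM in KA and 2.23 to 3.82 CPM in PBS mice (log2 difference -1.27 ± 0.40, -1.62 within set 5). Htr1a, the inhibitory serotonin receptor, was at 12.2 to 25.8 CPM in KA and 27.4 to 36.5 CPM in PBS mice (log2 difference -0.61 ± 0.212). Dlx1, a transcription factor of forebrain interneurons, was at 16.5 to 35.7 CPM in KA and 39.1 to 57.5 CPM in PBS mice, with a log2 difference of -0.56 ± 0.215 over all libraries and -0.23 within set 5. The list of inhibitory neuron markers that Dlx1 belongs to had 7 of 14 above 0 and a median of -0.03 (0.08 within set 5). The remaining 5 leading genes, Erich5, Ndnl2, Tub, Col19a1 and Fam214a, had log2 differences from -1.17 to -0.45, and within set 5 from -0.79 to -0.27.

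Lists of synaptic and channel genes had medians below 0, and that of the postsynaptic density list turned its sign within set 5. Of 23 postsynaptic density genes 4 were above 0, with a median of -0.43 over all libraries and 0.07 within set 5. Of 25 presynaptic release genes 3 were above 0 (median -0.17, -0.01 within set 5). Of 33 potassium channel genes 6 were above 0 (median -0.23, -0.06 within set 5), and of 30 sodium, calcium and HCN channel genes 7 were above 0 (median -0.25, -0.09 within set 5). Ionotropic glutamate receptor genes had a median of -0.16 (-0.15 within set 5), with 5 of 16 above 0. Markers of excitatory neurons had a median of -0.37 and 0 of 10 above 0, but 0.24 within set 5, and oligodendrocyte precursor markers had a median of -0.47 and 0.39, respectively. The part of library set in these lists was not tested beyond these values.

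Single genes show where these shifts lay. Pclo, a scaffold of the presynaptic active zone, was the only presynaptic member without overlap, at 986 to 1302 CPM (median 1209) in KA mice and 1303, 1395, 1551, 1958 and 1885 CPM in PBS mice. Mice 50 and 78 were the highest PBS mice and KA mouse 9 came close to PBS mouse 2, with a log2 difference of -0.45 ± 0.174 (adjusted P = 0.875) and -0.23 within set 5. Gria1, an AMPA receptor subunit, was at 446 to 762 CPM (median 483) in KA mice and 569, 566, 773, 888 and 904 CPM in PBS mice (log2 difference -0.45 ± 0.205, -0.15 within set 5). Nlgn3, a postsynaptic adhesion molecule, was at 90.5 to 145 CPM in KA mice and 121, 116, 139.9, 293 and 249 CPM in PBS mice, so that only PBS mice 50 and 78 lay above all KA mice (log2 difference -0.58 ± 0.264, -0.03 within set 5). Scn3b, a sodium channel beta subunit, was highest in PBS mouse 4 (79.5 to 129 CPM in KA and 110.0, 119, 341, 154 and 133 CPM in PBS mice), and its log2 difference of -0.83 ± 0.286 was -0.55 without PBS mouse 4 and KA mouse 6. Kcnq5, an M-type potassium channel, had a log2 difference of -0.59 ± 0.23 over all libraries and -0.18 within set 5.

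Immediate early genes, which neuronal activity switches on within minutes, changed sign with library set and with the fit. Over all libraries 8 of 26 were above 0 with a median of -0.23 in edgeR. The median was 0.36 within set 5 and 0.34 with the set as a block. With voom and sample quality weights it was 0.26 over all libraries. In input libraries it was 0.49, with 21 of 26 above 0. Egr4 was at 1.39 to 3.87 CPM in KA mice and at 2.16, 1.94, 5.8, 8.51 and 11 CPM in PBS mice. PBS mice 50 and 78 were highest and PBS mice 2 and 3 lay among the KA mice, with a log2 difference of -1.1 ± 0.446 (adjusted P = 0.875) and -0.13 within set 5. Npas4, an activity-dependent transcription factor, was at 1.81 to 8.74 CPM in KA and 9.19, 3.12, 12.7, 6.44 and 12.3 CPM in PBS mice (log2 difference -0.96 ± 0.428, -0.80 within set 5). Dsp, a desmosomal protein that marks dentate granule cells, spanned 9.91 to 88 CPM in KA mice and was 33.2, 24.3, 18.9, 191 and 158 CPM in PBS mice, and its log2 difference was -1.35 ± 0.677 over all libraries and 0.22 within set 5.

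**Figure D3:**
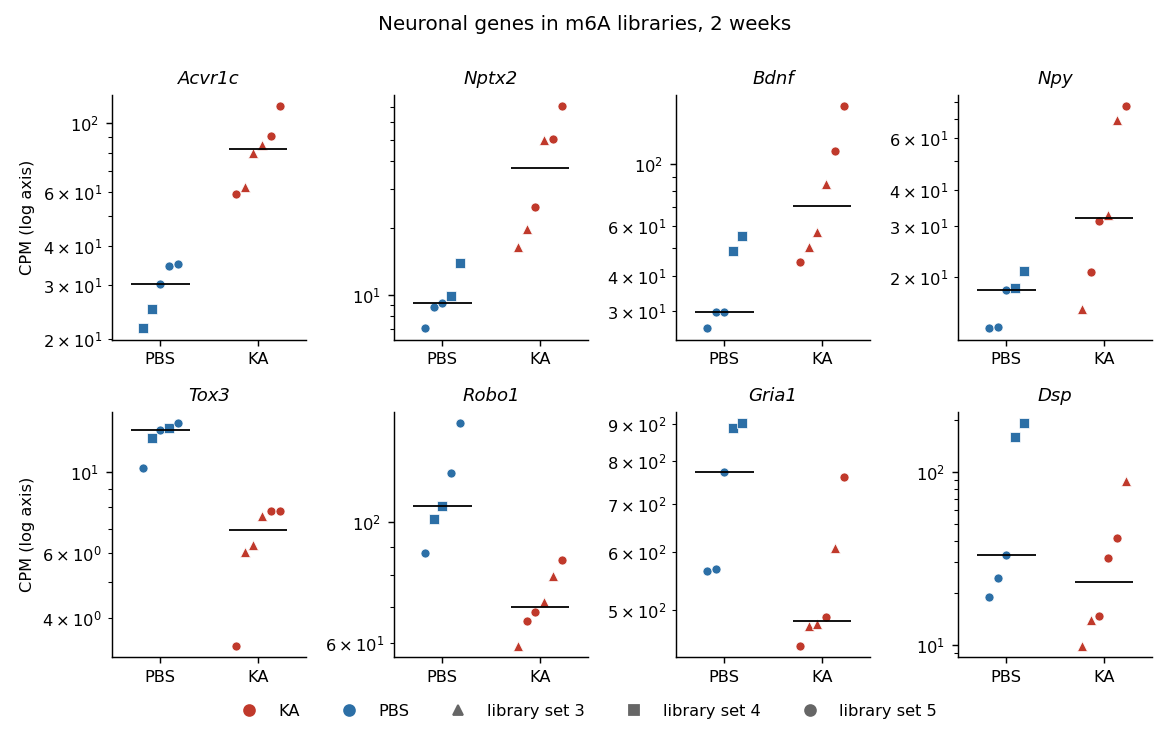
Levels of 8 neuronal genes (y axes, CPM on a log scale) in PBS and KA m6A libraries at 2 weeks, with 1 point per mouse, symbols for the library set and a line at the group median. Acvr1c and Nptx2 do not overlap between groups, and PBS mice 50 and 78 of library set 4 are the highest points of Gria1 and Dsp.

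**Figure D4:**
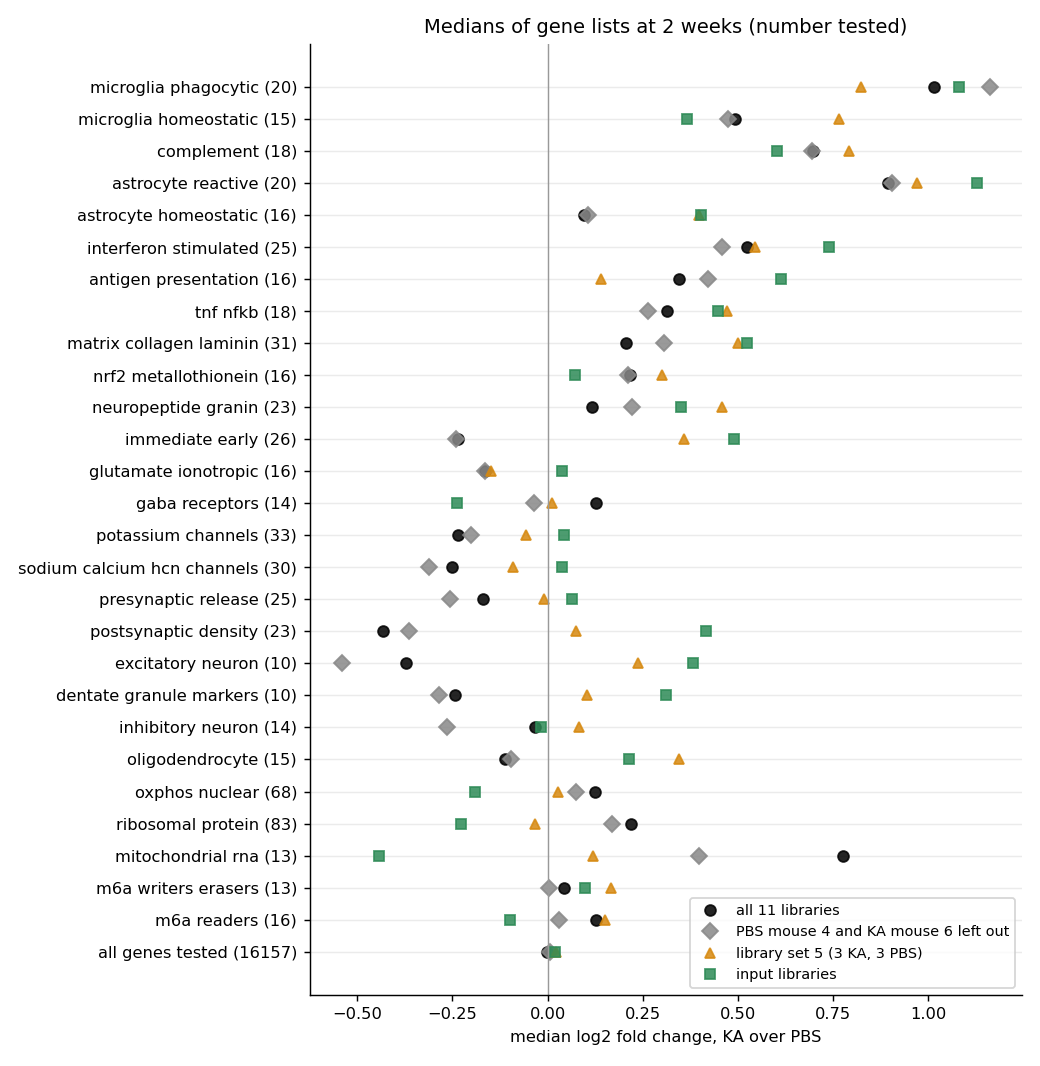
Median log2 difference (x axis, KA over PBS) of each gene list (y axis, number of genes tested in parentheses) over all 11 m6A libraries, without PBS mouse 4 and KA mouse 6, within library set 5 and in input libraries. Microglial, complement and reactive astrocyte lists lie to the right of 0 in each, whereas immediate early genes lie at -0.23 over all libraries and at 0.36 within set 5.

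Medians of inhibitory and metabolic lists lay closer to 0. GABA receptor genes had a median of 0.13 (0.01 within set 5) with 10 of 14 above 0, and Gabra2, a GABA-A receptor subunit, was at 281 to 551 CPM in KA mice and 417, 360.4, 224, 306 and 269.7 CPM in PBS mice (log2 difference 0.44 ± 0.215). Genes of GABA synthesis and transport had a median of -0.10 (-0.06 within set 5). mTOR and PI3K signaling and autophagy genes had medians of -0.06 and -0.06 (-0.07 and 0.00 within set 5), and glycolysis and citric acid cycle genes one of 0.07 (0.08 within set 5). Nuclear-encoded oxidative phosphorylation genes had a median of 0.13 with 51 of 68 above 0, and cytosolic ribosomal protein genes one of 0.22 with 59 of 83 above 0. Within set 5 these medians were 0.03 and -0.03. Mitochondrially encoded RNAs, a sign of RNA quality, had 11 of 13 above 0 and a median of 0.78, but 0.40 without PBS mouse 4 and KA mouse 6 and 0.12 within set 5. Their part in the list shifts was not tested.

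Markers of other cells that dissection could carry along varied from library to library. Choroid plexus markers summed to 641 to 3821 CPM in KA and 365 to 2291 CPM in PBS mice, and 6 of 10 were above 0. Blood markers (hemoglobins) summed to 6.78 to 54 CPM in KA and 6.41 to 17.4 CPM in PBS mice, thalamic markers to 72.4 to 102 and 70.2 to 161 CPM, and striatal markers to 47.2 to 70.9 and 48.9 to 77.3 CPM. Endothelial markers summed to 303 to 1113 CPM in KA and 199 to 376 CPM in PBS mice, where the highest value came from Pecam1, an endothelial adhesion molecule, in KA mouse 6 (1015 CPM). Its log2 difference was 1.07 ± 0.476 with and 0.16 without KA mouse 6 and PBS mouse 4.

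The transcripts of the m6A machinery itself were measured in the same pulldown. Of 13 writers and erasers 7 were above 0 with a median of 0.04 (0.17 within set 5), and of 16 readers 12 were above 0 with a median of 0.13 (0.15 within set 5). Mettl3, the catalytic writer subunit, was at 18.6 to 45.5 CPM (median 27.1) in KA mice and at 24.8, 26.6, 18.2, 12.9 and 15.6 CPM in PBS mice. KA mice 6 and 7 were highest, KA mice 9, 21 and 42 lay within the PBS range, and the log2 difference was 0.61 ± 0.278 (adjusted P = 0.875), 0.31 within set 5 and 0.41 without PBS mouse 4 and KA mouse 6. Mettl14, its partner, had KA values of 34.3 to 47.4 CPM and PBS values of 45.8, 47.6, 17.9, 42.2 and 42.1 CPM, of which that of PBS mouse 4 was far below the rest (log2 difference 0.07 ± 0.228). Wtap, a regulatory subunit of the writer complex, was at 55.2 to 150.0 CPM in KA and 68.1 to 75.7 CPM in PBS mice, with KA mouse 6 highest (log2 difference 0.29 ± 0.228). The erasers Fto and Alkbh5 had log2 differences of -0.01 ± 0.182 and 0.24 ± 0.164, and the readers Ythdf1 and Ythdf2 of -0.41 ± 0.224 and 0.13 ± 0.247. Igf2bp2, a reader that stabilizes its targets, was at 107 CPM in KA mouse 6 and at 6.76 to 13 CPM in the other KA mice, against 12.1, 8.88, 1.53, 6.55 and 7.74 CPM in PBS mice. Its log2 difference of 1.85 ± 0.72 was 0.29 without PBS mouse 4 and KA mouse 6.

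Serpina3n, Zfp57, Oprk1, Mastl and Lrrc20, transcripts that the study measured by m6A immunoprecipitation and qPCR, were not separated between groups in these libraries. The qPCR of the study was normalized to input, whereas levels here are those of the pulldown alone. The study used a separate cohort for it than for its m6A array, and how that cohort relates to the mice sequenced here is not stated. Pcdhgc4, also measured there, had no matching symbol. Serpina3n, a secreted protease inhibitor of reactive astrocytes, ran from 16.5 to 228 CPM (median 40.2) in KA mice and was 8.42, 7.35, 21.7, 24.4 and 58.6 CPM in PBS mice. KA mouse 42 lay far above the others and PBS mouse 78 above 5 of 6 KA mice, and the log2 difference of 1.43 ± 0.713 (adjusted P = 0.875) was 0.41 without KA mouse 42 and 2.06 without PBS mouse 78. Zfp57, a factor that maintains imprints, had a log2 difference of -0.06 ± 0.213, the kappa opioid receptor Oprk1 one of -0.23 ± 0.489, the mitotic kinase Mastl one of -0.23 ± 0.37 and Lrrc20 one of -0.34 ± 0.205.

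The same contrast in input libraries (6 KA and 3 PBS mice at 2 weeks) bears on whether a difference in the pulldown is also one in total RNA. Input columns of KA mice 6, 7 and 9 carried the word Input and held 7822429 to 8017282 counts. Those of KA mice 5, 21 and 42 and PBS mice 2, 3 and 4 did not, and held 3057578 to 5720858. The former input set held KA mice only, so treatment and input set cannot be told apart there. PBS mice 50 and 78 had no labelled input library. The KA effect in m6A libraries minus that in input libraries was tested as an interaction, and edgeR called 0 of 16141 genes (0%), with 655 at an unadjusted P below 0.05, whereas DESeq2 called 4 predicted genes (Gm9800, Gm15500, Gm13370 and Gm10240). With single libraries left out, the 655 became 1897, 1304 and 1244 without the m6A libraries of KA mouse 42, PBS mouse 2 and PBS mouse 3, and 397, 339, 373 and 310 without the m6A libraries of KA mouse 6, PBS mouse 50 and PBS mouse 78 and the input library of PBS mouse 3. By the labels, input and m6A libraries of a number come from the same animal. With the mouse as a block, 1 of 15722 genes was called (Gm38356, adjusted P = 0.0325 in edgeR). In input libraries themselves, 0 of 16141 genes were called in edgeR and 692 had an unadjusted P below 0.05.

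Effects in both assays are given side by side for glial genes. Clec7a was higher by 3.2 ± 0.462 in m6A and 2.47 in input libraries, and the difference of the effects was 0.71 (adjusted P = 0.844 in edgeR). For Gfap the values were 1.89 and 2.49, for C4b 1.96 and 2.28, and for Nptx2 1.99 and 2.36, with differences of -0.60, -0.33 and -0.37 and adjusted P of 0.846, 0.924 and 0.895. The SE of these differences was 0.74, 0.772 and 0.639, so unequal effects of this size would not have been detectable. For Serpina3n the effect was 1.43 in m6A and 3.2 in input libraries (difference -1.78, adjusted P = 0.807). Among the named genes, the test of this difference ranked Wtap first, with 0.29 in m6A, -0.73 in input and a difference of 1.01 (adjusted P = 0.807), followed by Igf2bp2 with 1.85, -0.76 and 2.6 (adjusted P = 0.807). In both, KA mouse 6 had the highest m6A level. The mitochondrial gene mt-Nd4l, highest in the same mouse, had effects of 0.93 in m6A and -0.53 in input libraries (difference 1.45, adjusted P = 0.807). Genes lower in KA mice, such as Erich5 (-1.17 in m6A, -0.04 in input, adjusted P = 0.807) and Htr1a (-0.61 and -0.06, adjusted P = 0.807), did not pass the test of the difference either.

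**Figure D5:**
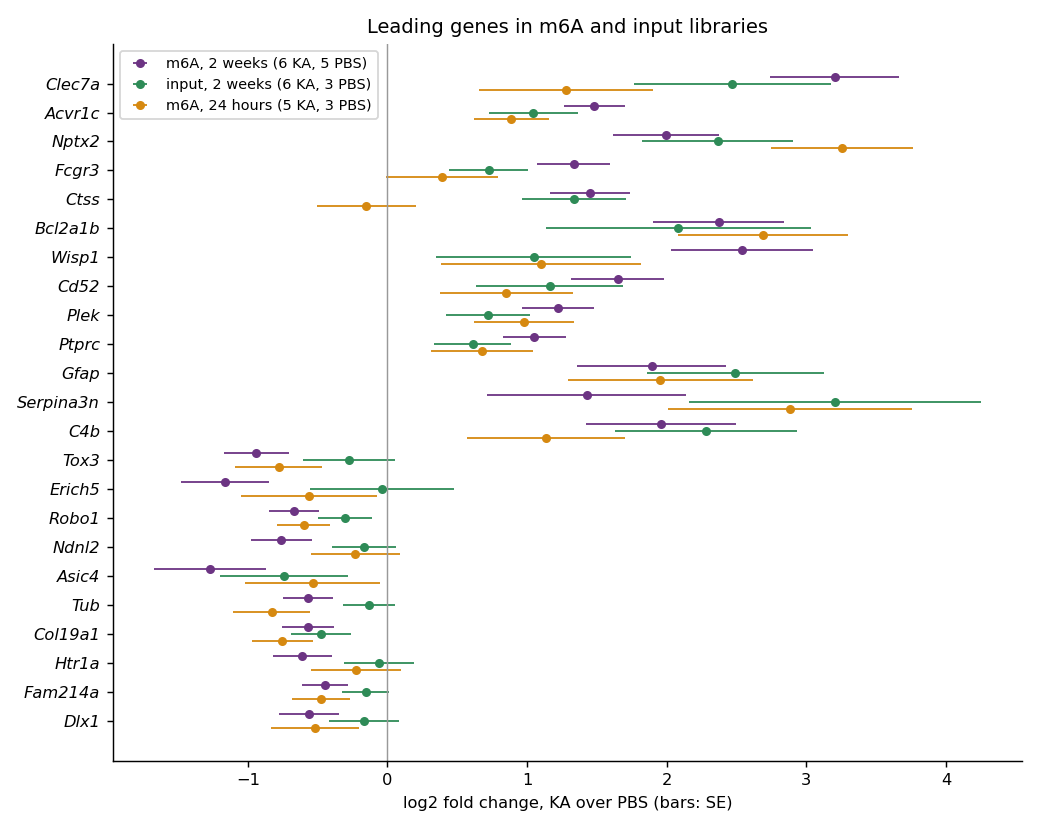
Log2 difference of KA over PBS (x axis, bars show the SE) for leading named genes (y axis) in m6A libraries at 2 weeks, input libraries at 2 weeks and m6A libraries at 24 hours. Clec7a lies at 3.2 in m6A and 2.47 in input libraries at 2 weeks and at 1.28 at 24 hours, and Ctss at 1.45, 1.34 and -0.15.

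The KA effect on m6A-bound RNA at 2 weeks was also set against that at 24 hours (5 KA and 3 PBS mice), the acute phase. At 24 hours the libraries of KA mice 67 and 98 held 1979606 and 1652933 counts. There 3 counts correspond to 1.52 and 1.81 CPM, which limits low genes. The library of KA mouse 8 had 16.4% mitochondrial counts and 8.90% from the predicted gene Gm10800. KA mice at 24 hours were in library sets 3 and 4 and PBS mice in sets 4 and 5. edgeR called 1 of 17440 genes (0.00573%) for a different effect, with 428 at an unadjusted P below 0.05 and a median difference over all genes of -0.11. Without KA mouse 8 of the 24 hour group the latter values were 834 and 0.01, and without any other single library they were 319 to 599 and -0.15 to -0.04. The gene called was Tm4sf1, a membrane protein of the tetraspanin superfamily, with a log2 difference of 3.41 at 24 hours and 0.52 ± 0.228 at 2 weeks (difference -2.89 ± 0.323, adjusted P = 0.000355 in edgeR). At 2 weeks its levels were 8.32 to 13.2 CPM in KA mice and 8.49, 8.4, 5.96, 5.29 and 10.2 CPM in PBS mice, with overlap. DESeq2 called 5 genes (Tm4sf1, Npas4, Fos, Shox2 and Trib1), and edgeR with library set as a block called 2 (Tm4sf1 and Trib1). Fos, the AP-1 subunit, had effects of 3.19 at 24 hours and -0.18 at 2 weeks, and Npas4 of 3.07 and -0.96. Inhba had effects of 4.68 and 1.74, and Spp1 of 3.04 and 1.01.

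By list, reactive astrocyte genes had a median of 2.41 at 24 hours and 0.90 at 2 weeks, interferon-stimulated genes 1.88 and 0.52, and immediate early genes 1.03 and -0.23. Phagocytic microglial genes had medians of 1.23 and 1.01, and homeostatic microglia markers 0.00 and 0.49. Ctss had an effect of -0.15 at 24 hours and 1.45 at 2 weeks, a difference of 1.6 (adjusted P = 1.0 in edgeR). Nptx2, Npy and Aqp4 had effects of 3.25, 1.21 and 0.86 at 24 hours and of 1.99, 1.3 and 0.72 at 2 weeks. Medians of lists were not tested for a difference between times.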

How the data were processed

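Unnormalized read counts by gene symbol were deposited by the authors for each of 4 sequencing lanes of a library (32544 symbols), and the lanes were summed here. The submitters' processing notes name the build mm10, but for the aligner, the counter and the strand setting nothing is stated in the sources used here. Reads of overlapping genes or near-identical copies may have been split or shared. Another 8 columns have no labelled library and were not used, nor were the input columns at 24 hours. Coordinates are those of RefSeq for GRCm38.p6, which is mm10.

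Counts were fitted in edgeR 4.0.16 (R 4.3.3, limma 3.58.1) after TMM scaling and a filter on low counts (filterByExpr), with the robust quasi-likelihood test, and P values were adjusted by Benjamini-Hochberg with 0.05 as the threshold. Only KA and PBS m6A libraries at 2 weeks entered the main comparison, and interactions used 4 groups. CPM are TMM-scaled. For principal components, log2 CPM were taken with 2 as the prior count. The fits were tested on simulated data. Python 3.11.15 was used with scipy 1.17.1 for exact tests, numpy 2.4.6 and pandas 2.3.3 for tables, and matplotlib 3.10.9 for plots.

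The 55 gene lists (35 of pathways, 18 of cell markers and 2 of RNA quality) and the tests were chosen with earlier results of these data known. 9 of 983 listed symbols were not matched. Lists are described by counts and medians, without a set test. Named genes were up to 10 in each direction past an adjusted P of 0.05, or otherwise the non-overlapping genes with a mean of at least 1 CPM and the smallest P, without predicted genes (0 higher and 2 lower genes were passed over). To these came the member of each list with the smallest P, the m6A enzymes and readers, the transcripts of the immunoprecipitation qPCR, and 17 genes chosen after their values were seen, namely Gfap, Vim, Cd44, Cst7, Ccl6, Tyrobp, Spp1, C1qb, C3, Npy, Bdnf, Penk, Inhba, Npas4, Fos, Igf2bp1 and Tm4sf1. Further list members and genes called by an alternative were named after their values were seen. A few genes, including 1 that met the rule, are not reported here singly.

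By the labels, a mouse number marks 1 animal in both assays. Over the 9 mice sequenced in both, deviations from the group means correlated with r from -0.07 to 0.54, and r was highest for the own number in 6. The exceptions were KA mouse 6 (r = 0.15), PBS mouse 2 (r = -0.07) and PBS mouse 4 (r = -0.01), so the pairing rests on the labels. No pair of replicates held identical counts or differed by less than sampling noise (lowest chi-square per degree of freedom 20.5). The limit that 3 counts set covers counting error only. The alternatives tried included DESeq2 1.42.0, limma voom weighting samples by quality, other scalings, filters and thresholds, all 19 m6A libraries in 1 fit, removal of mitochondrial and ribosomal RNA genes, a fit that was not robust, library set as a block or restricted to set 5, mouse number as a replicate block, and leaving out single libraries. Leaving out PBS mouse 4 with KA mouse 6, or PBS mouse 4 within set 5, was chosen after seeing the data.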

Additional observations from a re-analysis of the deposited data

Results flagged for a closer look

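In groups of 5 or 6 libraries, 10 of 200 group values tested had 1 library far from the others by Dixon's criterion, and chance marks about 1 in 20 groups. In KA mice these were Tox3 in mouse 7 (log2 CPM 1.79), Tub in mouse 7 (6.78), Col19a1 in mouse 42 (3.67), Dlx1 in mouse 42 (4.06), Fam214a in mouse 6 (4.91), Igf2bp2 in mouse 6 (6.74) and Pecam1 in mouse 6 (9.99). The values of Tox3, Tub, Col19a1, Dlx1 and Fam214a were the lowest and those of Igf2bp2 and Pecam1 the highest of the 6 KA mice. In PBS mice all 3 were the lowest values and came from mouse 4: the first principal component (-76.56), Psmb8 (log2 CPM -1.28) and Mettl14 (log2 CPM 4.17). Tm4sf1 was marked because its KA effect differed between 2 weeks and 24 hours (log2 difference of the effects -2.89).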

How the results depend on the processing

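The number of genes called between KA and PBS mice was 0 in edgeR as reported, with upper-quartile or library-size scaling, a mean of at least 10 counts, mitochondrial and ribosomal RNA genes removed, no robust fit, library set as a block, within set 5 with or without PBS mouse 4, and without PBS mouse 4 and KA mouse 6. It was 15 with DESeq2, 2 with voom and sample quality weights, 2 with no filter (Clec7a and Acvr1c), 1 with all 19 m6A libraries in 1 fit (Acvr1c), 2 at a threshold of 0.1 and 0 to 1 with each library left out: Clec7a without KA mouse 7 and the predicted gene Gm5940 without PBS mouse 78. For the KA effect in m6A against input libraries, the count of 0 was 4 with DESeq2 and 1 with the mouse number as a replicate block (paired fit), which changed no other call. For 2 weeks against 24 hours, the count of 1 was 5 with DESeq2 and 2 with library set as a block. The P of the first principal component ran from 0.0143 to 0.516 and that of the second from 0.127 to 0.724 with each library left out.

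Of the 2326 values of named genes under an alternative, 39 changed sign, and the cause was not tested. With library set as a block these were Amigo2 (0.0221), Dsp (0.199) and Fto (0.0307), and within set 5 Amigo2 (0.0402), Dsp (0.215) and Fto (0.0496). Within set 5 without PBS mouse 4 they were Egr4 (0.508), Gria1 (0.0112), Nlgn3 (0.051), Acan (0.491), Amigo2 (0.308), Dsp (0.0451), Olig1 (0.497), Dynlrb2 (0.194), Mettl14 (-0.148), Ythdf1 (0.063), Fto (0.00694), Lrrc20 (0.011) and Fos (0.619). Without PBS mouse 4 and KA mouse 6 they were Dynlrb2 (0.293), Mettl14 (-0.0764), Ythdf2 (-0.154), Zfp57 (0.039) and Fos (0.143), and with voom Dynlrb2 (0.173), Mettl14 (-0.086), Zfp57 (0.0345) and Fos (0.509). With each library left out, the values that crossed 0 were those of Dynlrb2 (-0.799 to 0.294), Mettl14 (-0.1215 to 0.154), Ythdf2 (-0.0642 to 0.287), Fto (-0.117 to 0.0549), Mastl (-0.418 to 0.128) and Fos (-0.388 to 0.13), where PBS mouse 4 turned the sign of Dynlrb2, Mettl14, Ythdf2, Mastl and Fos, PBS mouse 78 that of Fos and Fto, and KA mice 5, 7 and 9 and PBS mouse 2 that of Fto. Of 1319 list medians under an alternative, 53 moved by more than the spread between replicates. Depth limits low genes: 3 counts were 0.0868 to 0.456 CPM, and the comparison with input rests on 9 input libraries of 3057578 to 8017282 counts, of which 3 were from PBS mice.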

Other observations

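Vascular, precursor and stress genes complete the account of the m6A libraries at 2 weeks. Pericyte and smooth muscle markers had 6 of 8 above 0, a median log2 difference of 0.34 (0.48 within set 5) and summed levels of 125 to 264 CPM in KA and 113 to 148 CPM in PBS mice. Rgs5, a regulator of G protein signaling in pericytes, was at 59.3 to 151 CPM in KA mice and 92.3, 80.6, 95.2, 48.8 and 48.7 CPM in PBS mice, with PBS mice 50 and 78 lowest (log2 difference 0.44 ± 0.263). Oligodendrocyte markers had a median of -0.11 over all libraries and 0.35 within set 5, and Opalin, a myelin protein, was at 6.71 to 13.9 CPM in KA and 11 to 14.2 CPM in PBS mice. Olig1, a transcription factor of the oligodendrocyte lineage, was at 8.02 to 37.9 CPM in KA mice and 12, 12.8, 47.4, 47.4 and 35.9 CPM in PBS mice. Cell cycle genes had 16 of 21 above 0 with a median of 0.40 (0.30 within set 5). Without PBS mouse 4, which had the lowest mean log2 CPM of this list (1.42), the median was 0.24 (0.12 within set 5). Cdk6, a kinase of the G1 phase, was at 7.37 to 13.4 CPM in KA and 4.58 to 9.01 CPM in PBS mice (log2 difference 0.54 ± 0.242). Heat shock genes had a median of 0.10 (0.21 within set 5), cell death genes one of 0.12 (0.32 within set 5), activin and TGF-beta signaling genes one of 0.05 (0.22 within set 5) and perineuronal net genes one of -0.04 (0.24 within set 5).

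Several values belonged to 1 or 2 libraries. Park2, an E3 ubiquitin ligase of mitophagy, was at 136 CPM in KA mouse 7 and 101 CPM in KA mouse 6, against 25.6 to 47.1 CPM in the other KA mice and 15.1 to 45.8 CPM in PBS mice. Its log2 difference was 1.18 ± 0.454 in m6A and 0.04 in input libraries. Hbb-bs, a hemoglobin chain, was at 14.1 CPM in KA mouse 21 and at 0.665 to 3.0 CPM in PBS mice. Dynlrb2, a dynein light chain of ciliated cells, was at 8.1 CPM in PBS mouse 4 and at 0.881 to 1.81 CPM in the other PBS mice. Acan, the core proteoglycan of perineuronal nets, was at 2.96 to 5.89 CPM in KA mice. It was at 2.85, 3.12, 8.71, 7.39 and 9.3 CPM in PBS mice, with mice 2 and 3 lowest among the latter. Its log2 difference was -0.71 ± 0.346 in m6A and 0.41 in input libraries (adjusted P = 0.807 for the difference in edgeR). The input value comes from PBS mice 2, 3 and 4 only, without mice 50 and 78, so the assays were compared over different PBS mice.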
